A study of Mus musculus with 14 samples.

Results

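The complement genes *C1qa*, *C1qb*, *C1qc*, *C3*, *C4b*, *Cfi* and *Serping1* were followed in nuclei of the mouse retina and of brain vascular fragments. They make up 7 of the 28316 genes of the retina data and 7 of the 26528 genes of the brain data. The list was drawn up by name as classical pathway components and their regulators. Transcript counts (unique molecular identifiers, UMIs) of each gene were added up by library and cell type label. The sums were divided by all UMIs of the same nuclei and are given as counts per 1000000 UMIs (CPM).

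Complement is a cascade of plasma and tissue proteins that marks targets for removal. C1q, assembled from the chains that *C1qa*, *C1qb* and *C1qc* encode, starts the classical route, C4 and C3 are cleaved and deposited downstream of it, and factor I (*Cfi*) and C1 inhibitor (*Serping1*) limit the cascade. In the central nervous system microglia and macrophages are the best known source of C1q, and reactive astrocytes and Müller glia are known to make C4 and C3.

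Control mice, labeled wild type, were compared with *Cdh5CreER;Tgfbr1 CKO/-* (CKO) mice, in which 4-hydroxytamoxifen given between P3 and P5 activates an endothelial Cre that deletes *Tgfbr1*. For its eye sections the paper describes controls as phenotypically wild type, typically *Cdh5CreER;Tgfbr1 CKO/+* or the same with *Tgfbr2*. Which genotype the control libraries had, and whether those mice received 4-hydroxytamoxifen, could not be read from the labels. The paper gives an age of P14, while the sample labels speak of young adults. The retina was represented by 1 control and 11 CKO libraries of whole retina, and the brain by 1 control and 1 CKO library, each pooled from vascular fragments of 2 brains. How many mice contributed to a retina library could not be read from the labels or the paper, so a p-value measures spread between libraries. Because there was 1 control library, its spread is taken to be that of the CKO libraries. The authors' labels place the control and CKO replicates 1 to 3 in batch 1, replicates 4 and 5 in batch 2 and replicates 6 to 11 in batch 3, with replicates 8 to 11 made with a later kit version.

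Retina libraries held 30989702 UMIs over 11513 nuclei in the control and between 90449 UMIs (replicate 4) and 55803724 UMIs (replicate 5) in the CKO. CKO replicate 4 stands apart, with 104 nuclei, of which 65 carry the immune label, and among the fits by label it enters that of the immune label alone. Clusters had been removed by manual curation from replicates 4 and 5 before deposit. The brain libraries held 49798325 UMIs over 16649 nuclei in the control and 31033373 UMIs over 14675 nuclei in the CKO. Of the 66 pairs of retina libraries, 9 shared a barcode, at most 2 barcodes each, and the brain libraries shared 2. *Xist* was at 6779 CPM in the control and at 5577 to 6823 CPM in CKO replicates 1, 2, 4 and 7, and at 0.365 to 12.9 CPM in the other CKO replicates, so sex is not balanced between the groups. In the brain *Xist* stood at 1963 CPM in the control and 1.29 CPM in the CKO, and the Y-linked *Ddx3y* at 27.1 and 63.1 CPM. The pooled control thus held UMIs of both genes, and the brain libraries differ in sex make-up.

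Labels were compared with fixed lists of marker genes. In every fitted library the Müller glia label held all 12 Müller glia markers, at 5235 CPM in the control and 3876 to 5582 CPM in the CKO. Rod markers in that label came to 5041 CPM in the control and 3464 to 5891 CPM in the CKO, above the Müller glia markers in 5 of 10 CKO libraries. The immune label held microglial markers (2560 CPM in the control) but more rod marker UMIs (6482 CPM), while replicate 4 held 0 rod marker UMIs there. In the brain, the label "glia" was led by fibroblast markers such as *Col1a2* (1602 CPM in the control and 1703 CPM in the CKO). The label "microglia" held 129 control nuclei, in which macrophage markers such as *F13a1* (5906 CPM) lay beside all 12 microglial markers. Its 11 CKO nuclei lacked UMIs of *Tmem119*, *Gpr34*, *P2ry13* and *Trem2*.

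*Tgfbr1*, the gene under deletion, stood at 69.1 CPM (95% interval 62.5–76.2) in control and 62.9 CPM (57.1–69.1) in CKO brain endothelial cells (ECs). UMIs counted per gene from the 3′ end do not test the deletion. None of the 11 retinal labels is endothelial. Intervals of counts here and below cover counting error at 95% and nothing else.

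In the control libraries the 3 C1q genes shared their highest labels. They were highest in the brain label "microglia", at 475 CPM (336–653) for *C1qa*, 363 CPM (243–521) for *C1qb* and 325 CPM (212–477) for *C1qc*. In the retina they were highest in the immune label, at 43.7 CPM (14.2–102), 69.9 CPM (30.2–138) and 78.6 CPM (36.0–149), with no overlap of the intervals with the label next in CPM. The 12 control astrocyte nuclei, with 0 C1q UMIs, allow up to 118 CPM. In brain vascular labels they were also present, for *C1qa* at 31.7 CPM (23.4–41.9) in vascular smooth muscle cells (vSMCs) and 25.3 CPM (21.4–29.8) in ECs, which overlap. The label Glut_20, led by oligodendrocyte markers (6382 CPM), held *C1qa* at 38.0 CPM (23.2–58.6) and *C1qc* at 26.6 CPM (14.5–44.6), overlapping with both. Vascular nuclei also held microglial markers, at 194 CPM in vSMCs and 144 CPM in ECs, and macrophage or monocyte markers, at 453 and 189 CPM.

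*C4b* was also highest in the microglia label of the brain, while *C3* and the regulators were highest in other labels. *C4b* reached 188 CPM (105–310) in the microglia label, 41.6 CPM (32.5–52.3) in the label "glia" and 36.0 CPM (26.6–47.5) in astrocytes, and the last pair overlap. *C3* was highest in the label CP_6, which carries ependymal markers, at 5.45 CPM (3.23–8.62). *Serping1* was highest in "glia" at 126 CPM (110–144), followed by vSMCs at 73.7 CPM (60.8–88.5). *Cfi* was sparse, with its highest retinal level in rod bipolar cells at 3.35 CPM (1.34–6.89) and its highest brain level in ECs at 2.07 CPM (1.07–3.61). These ranks hold among observed levels only. The 12 control retinal astrocyte nuclei, with 0 UMIs of *C3*, *C4b* and *Cfi*, allow up to 118 CPM of each. The retinal immune label, also with 0 control UMIs, allows up to 32.2 CPM of each. For *Serping1* too, these astrocyte nuclei are too few to rank.

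Over 32 labels of the control libraries, the profiles of 16557 genes were compared with each member by Pearson correlation of log2(CPM + 1). *C1qb* and *C1qc* were each other's nearest profile (r = 0.972), followed by *Laptm5* and *Cd86* for *C1qb* (0.958 and 0.952) and by *Laptm5* (0.969) and then *C1qa* for *C1qc*. For *C1qa* the nearest were *Lyz2* (0.969), *Cyth4* (0.956) and then *C1qc*. *C4b* was nearest to *Colec12* (0.861), *Mrc1* (0.843) and *C2* (0.840), and *C3* to *Bbox1* (0.834), *Tymp* (0.832) and *Tcte1* (0.824). *Serping1* was nearest to *Mrc2* (0.913), *Plac9* (0.901) and *Mxra8* (0.899), while for *Cfi* the nearest, *Pold2*, *Vangl2* and *Selenon*, came to 0.610, 0.580 and 0.580.

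Müller glia held more *C4b* than the control in each of the 10 CKO libraries with at least 100 Müller glia nuclei, from very few control UMIs. In replicate 7 the counting interval (2.61–15.5 CPM) overlaps that of the control (0.409–5.80 CPM). The difference between CKO and control did not pass the test adjusted over all genes with edgeR. It passed under some of the other settings that were run. *Serping1* was higher in most CKO libraries with more overlap, and the C1q genes, *C3* and *Cfi* were too sparse in these nuclei to test.

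*C4b* encodes the C4 chain that C1 cleaves. In Müller glia the control library held 3 *C4b* UMIs in 402 nuclei, or 1.99 CPM (0.409–5.80). The 10 CKO libraries with at least 100 Müller glia nuclei held 328 UMIs in 2668 nuclei, lowest at 7.12 CPM (replicate 7), median 25.9 CPM and highest at 37.3 CPM (replicate 5), with a mean of 23.9 ± 8.55 CPM (SD, n = 10). All 10 lay above the control and above the upper end of its counting interval. CKO replicates 1 to 3, which share batch 1 with the control, held 25.9 to 30.0 CPM. *C4b* UMIs were found in 250 of 2668 CKO nuclei and in 2 of 402 control nuclei.

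The ratio of the summed CKO counts to the control was 12.9 (counting interval 4.37–62.8). Of the 331 *C4b* UMIs summed for the filter, 328 came from the CKO, so the gene entered the test mainly through the group where it is high. With edgeR, kit version as a covariate and adjustment over 12789 genes, the log2 fold change was 3.57 (SE 0.83, p = 0.000583, adjusted p = 0.452), which missed the threshold of 0.05. By this test 0 of the 2 members tested and 2 of 12789 genes (0.0156%) passed, and 778 genes had an unadjusted p below 0.05. *C4b* passed with DESeq2 (adjusted p = 0.0273, log2 3.63), without the filter on UMIs (0.0423) and when CKO replicate 7 was left out (0.0412). Over the 21 alternatives the log2 fold change lay between 3.26 and 4.08 and the adjusted p between 0.0273 and 1.00. DESeq2 passed 107 of 8573 genes at this threshold, 94 of them higher in the CKO, while 0 of the 2 edgeR calls were higher, and *C4b* was the 1 complement gene among them of 10 with an adjusted p. Within batch 1 the adjusted p of *C4b* was 0.0930 (log2 3.62).

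*Serping1*, the inhibitor of C1, held 2 UMIs in control Müller glia, or 1.32 CPM (0.160–4.78). The CKO libraries ranged from 1.19 CPM (replicate 7) through a median of 5.12 CPM to 14.5 CPM (replicate 5), with a mean of 7.02 ± 5.23 CPM (SD, n = 10). In 9 of 10 the value lay above the control, and replicate 7 lay below it. In batch 1 the CKO libraries held 2.15 to 12.9 CPM. Of the 109 *Serping1* UMIs in the label, 107 came from the CKO, so this gene too entered the test mainly through the CKO. The ratio of summed counts was 6.31 (1.70–52.8), and edgeR gave a log2 fold change of 2.70 (SE 1.26, p = 0.0493, adjusted p = 0.820).

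**Figure D1:**
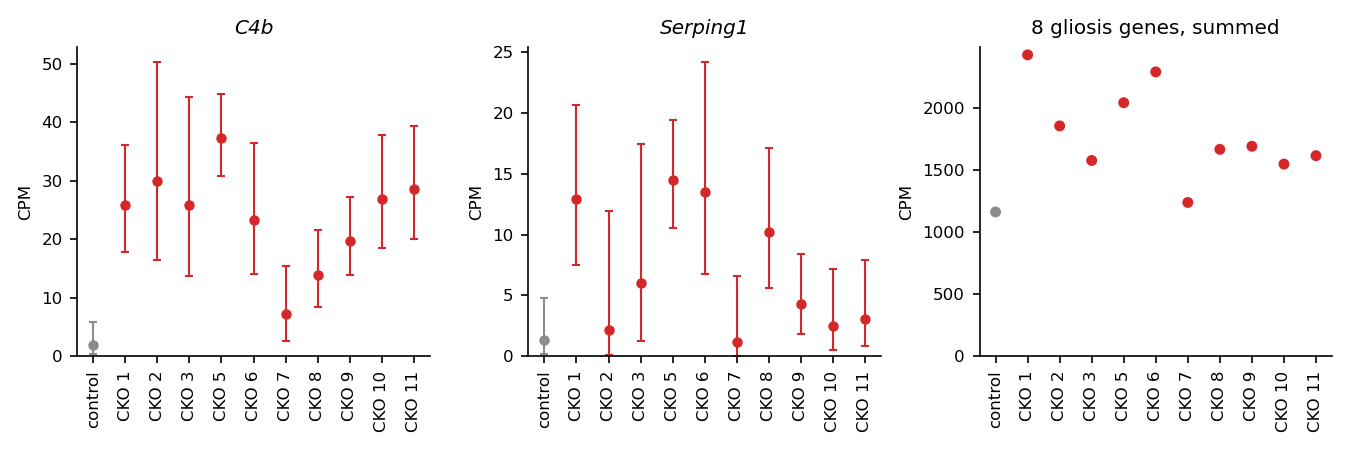
*C4b* and *Serping1* in Müller glia of each library as CPM, with 95% counting intervals, and the summed CPM of 8 gliosis genes in the same nuclei. Grey, control. Red, CKO libraries with at least 100 Müller glia nuclei.

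*C4a*, a close relative of *C4b*, served as a comparison in the same nuclei. It held 4 UMIs in the control (2.65 CPM, 0.721–6.78) and a median of 4.81 CPM in the CKO, 7 of 10 libraries above the control. Its ratio was 1.89 (0.702–7.13) and its log2 fold change 1.25 (adjusted p = 0.914). Whether *C4b* and *C4a* differed in their response was not tested.

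Other values differed between the same libraries. The 8 gliosis genes, *Cp* the most abundant, summed to 1164 CPM in control Müller glia and to between 1241 CPM (replicate 7) and 2433 CPM (replicate 1) in the CKO. Replicate 7 was thus lowest for *C4b*, *Serping1* and this list. Across the 10 CKO libraries the Spearman correlation with the gliosis sum was 0.24 for *C4b* and 0.71 for *Serping1*, and 0.13 between these genes. The CKO libraries with *Xist* held 7.12 to 30.0 CPM of *C4b* and those without it 13.8 to 37.3 CPM, and kit versions held 7.12 to 37.3 CPM (earlier) and 13.8 to 28.5 CPM (later). The 21 alternatives for *C4b* include fits without kit as covariate, with batch as covariate, within the batch of the control and in libraries with *Xist*. Over these 21 its log2 fold change lay between 3.26 and 4.08. Beyond these fits the part of sex, batch and kit in the result was not tested, and that of gliosis was not tested.

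A wider list of 49 further complement genes, chosen by role, was read with the 7 members. In Müller glia 17 of these 56 genes were tested with edgeR and 0 passed. Of the 17, 4 had an unadjusted p below 0.05, as did 778 of all 12789 genes tested in the label. The median log2 fold change of the 17 was 0.13, against 0.02 for all 12789 genes. Besides *C4b* and *Serping1*, the genes below an unadjusted p of 0.05 were *Vtn*, whose product restrains the terminal pathway, and the scavenger receptor *Colec12*. *Vtn* stood at 11.3 CPM in the control and 15.0 to 37.9 CPM in the CKO, above the control in 10 of 10 (log2 1.08, adjusted p = 0.795). *Colec12* stood at 20.5 CPM in the control and 1.93 to 16.6 CPM in the CKO, above it in 0 of 10 (log2 −1.60, adjusted p = 0.799). The 3 list genes with the most UMIs there were *Csmd2* (252 CPM in the control, CKO median 223 CPM), *Clu* (121 and 138 CPM) and *Susd4* (49.0 and 41.5 CPM).

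Retinal astrocytes were too few in the control for a test, and their values are given without one. The control held 12 astrocyte nuclei with 31274 UMIs, so that 3 UMIs, the floor used here, equal 95.9 CPM. *C4b* had 0 UMIs in the control and 209 UMIs in 10 CKO libraries, lowest at 0 CPM (replicate 7), median 229 CPM and highest at 471 CPM (replicate 2). Summed over libraries that is 2.19 times the control floor. Here and below such a multiple of the control floor leaves out the counting error of the CKO sum. *C3*, the central component, had 0 control UMIs and 0 to 175 CPM in the CKO, with a median of 42.9 CPM that lies under the control floor. *Serping1* had 1 control UMI and 0 to 202 CPM in the CKO (ratio 3.09, 0.541–123). Of its 99 UMIs in this label, 51 lay in 1 CKO library, and the ratio without that library was not taken. In this label gliosis genes summed to 1119 CPM in the control and 2914 to 11172 CPM in the CKO, and Müller glia markers (3517 CPM) exceeded astrocyte markers (3357 CPM) in the control, as they did in the CKO by median (4085 and 3035 CPM). The part of both in these values was not tested. Of all *C4b* UMIs in CKO retinas, 52.1% lay in Müller glia and 33.2% in the label "astrocytes".

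The immune label held the largest share of the UMIs of each C1q gene in the CKO retina, 53.0% for *C1qb*, 48.0% for *C1qc* and 30.0% for *C1qa*. In this label the CKO libraries surrounded the control. CKO replicate 4 held the highest value of each C1q gene. No C1q gene passed a test.

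*C1qa* stood at 43.7 CPM in the control (5 UMIs) and from 0 CPM (replicate 7) through a median of 37.3 CPM to 209 CPM (replicate 4) in 10 CKO libraries with at least 20 immune nuclei. *C1qb* stood at 69.9 CPM in the control (8 UMIs) and at 27.0 to 558 CPM in the CKO, median 67.4 CPM. *C1qc* stood at 78.6 CPM (9 UMIs) and at 15.6 to 442 CPM, median 40.1 CPM. The control lay inside the CKO range for each gene, with 4, 4 and 1 of 10 CKO libraries above it. In batch 1 the CKO libraries held 32.0 to 60.9, 64.1 to 74.4 and 21.3 to 40.6 CPM of *C1qa*, *C1qb* and *C1qc*.

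With edgeR the log2 fold changes in the immune label were 0.23 (SE 1.05) for *C1qa*, 0.42 (SE 1.06) for *C1qb* and −0.33 (SE 1.12) for *C1qc*, each with an adjusted p of 0.999. Of 8082 genes tested there 0 passed (0%) and 339 had an unadjusted p below 0.05, and the 3 members had p of 0.826, 0.695 and 0.774. A two-sided exact permutation test of CPM gave p = 0.909, 0.727 and 1.00, where the smallest p possible is 0.0909. Directions were not stable. *C1qb* turned to −0.14 without replicate 4 and to −0.09 within batch 1, *C1qa* turned to −0.16 without the kit covariate, and *C1qc* went to −0.92 without replicate 4. The ratio of mean CPM in the permutation test had a log2 of 0.01 for *C1qc*, against the edgeR direction.

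**Figure D2:**
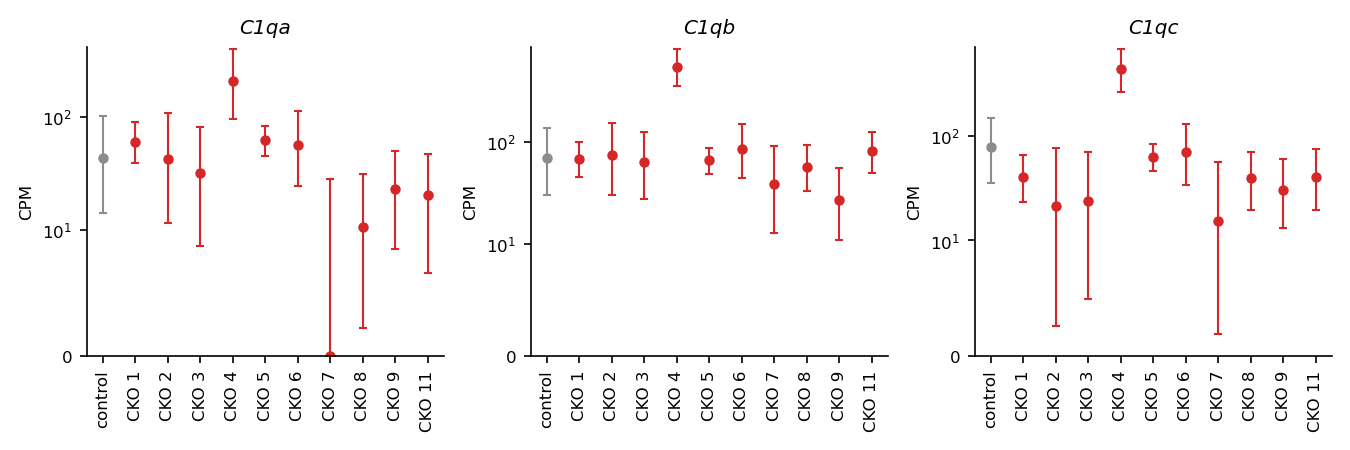
*C1qa*, *C1qb* and *C1qc* in the immune label of each retina library with at least 20 immune nuclei, as CPM with 95% counting intervals. The axis is linear below 10 CPM and logarithmic above. Grey, control. Red, CKO.

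The make-up of the immune label moved between the same libraries. Microglial markers summed to 2560 CPM in the control and 1010 to 7646 CPM in the CKO, highest in replicate 4. Macrophage and monocyte markers summed to 34.9 CPM in the control (3 of 12 genes detected) and 46.7 to 1813 CPM in the CKO, again highest in replicate 4. Their part in the C1q values was not tested. At least 1 C1q gene was found in 16 of 29 control and 231 of 691 CKO nuclei of the label, all libraries included. In the wider list *Colec12* had 0 control UMIs and 25.2 to 325 CPM in the CKO, summed 3.95 times the control floor. The integrin gene *Itgax* had 0 control UMIs and 16.0 to 46.2 CPM in the CKO, summed 1.26 times the floor. The lower ends of the counting intervals of these ratios were 3.19 and 1.00. Of the 17 listed genes tested with edgeR in the immune label 0 passed. *Colec12* and *Itgax* are among the 17 but passed the filter through CKO UMIs alone. A count of unadjusted p-values is therefore not given.

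In retinal neurons the members were sparse, and none passed a test. *Cfi*, which cleaves C3b and C4b, stood at 3.35 CPM (7 UMIs) in control rod bipolar cells and at 4.53 CPM (replicate 7) through a median of 6.26 CPM to 12.7 CPM (replicate 5) in the CKO. All 10 CKO libraries lay above the control, though 6 of them had a value inside its counting interval (1.34–6.89). The ratio was 2.58 (1.22–6.54) and the log2 fold change 1.09 (p = 0.145, adjusted p = 1.00). With edgeR 0 of 12056 genes passed in this label (0%), and 391 had an unadjusted p below 0.05.

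*C3* had 0 UMIs in control cone bipolar cells and 66 UMIs in 10 CKO libraries, 0 to 2.69 CPM with a median of 1.34 CPM. Summed over the group this is 2.83 times the control floor of 3 UMIs. All UMIs that took *C3* past the filter for testing came from the CKO, so its p-value is not given. *Serping1* and *Cfi* in the same label had log2 fold changes of 0.36 and 0.52 (both with an adjusted p of 1.00), and without the kit covariate that of *Serping1* went to −0.00449. No gene of 15235 passed in cone bipolar cells (0%), and 440 had an unadjusted p below 0.05.

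*Serping1* was also tested in amacrine and ganglion cells. In retinal ganglion cells it stood at 2.06 CPM in the control and 2.22 to 5.19 CPM in 7 CKO libraries, 7 of 7 above the control (log2 0.87, p = 0.256, adjusted p = 1.00). In GABAergic amacrine cells 5 of 10 CKO libraries lay above the control (log2 0.41) and in glycinergic amacrine cells 8 of 10 (log2 0.84), each with an adjusted p of 1.00. With edgeR 1 of 15671 genes passed in GABAergic amacrine cells (0.00638%) and 2 of 14779 in glycinergic amacrine cells (0.0135%), none of them a complement gene of either list. In ganglion cells 0 of 12994 passed (0%) and 143 had an unadjusted p below 0.05.

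Rods held few complement UMIs per nucleus but many nuclei. *C1qb* had 0 UMIs in 6621 control rods and 56 UMIs in 34399 CKO rods, 0 to 1.92 CPM per library. Summed over the group that is 2.81 times the control floor of 3 UMIs (0.349 CPM). Of the 56 UMIs, 28 lay in CKO replicate 5. CKO replicates 1 to 3, in the batch of the control, held 0.264, 0 and 0 CPM, each under that floor. *C1qb* too passed the filter through CKO UMIs alone. *C1qa* stood at 0.581 CPM in the control and 0 to 3.87 CPM in the CKO, highest in replicate 11 (log2 0.61, adjusted p = 1.00). *Cfi* stood at 0.814 CPM in the control and 0 to 2.09 CPM in the CKO (log2 0.22, adjusted p = 1.00). In rods 0 of 14045 genes passed (0%) and 357 had an unadjusted p below 0.05. Over the 8 retinal labels with a member to test, 15 tests of members were run with edgeR, 2 of them on members without control UMIs, which are not counted here. Of the other 13, 0 passed and 2, *C4b* and *Serping1* in Müller glia, had an unadjusted p below 0.05. In that label 778 of 12789 genes had one, and nearly all UMIs of these 2 genes there came from the CKO.

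In brain vascular nuclei, with 1 library per genotype, values are ratios without a test. C1q ratios were below 1 in ECs, while the astrocyte *C4b* ratio was above 2 over all nuclei and lower, with a wide interval, in deep nuclei. A gene is counted here when its ratio is above 2 or below 0.5.

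In ECs *C1qa* stood at 25.3 CPM (147 UMIs) in the control and 10.9 CPM (75 UMIs) in the CKO, a ratio of 0.432 (0.323–0.574). *C1qb* stood at 12.6 and 6.86 CPM (0.545, 0.370–0.797), and *C1qc* at 24.0 and 14.3 CPM (0.597, 0.456–0.779). Each interval lies below 1. Of the 4 members with at least 50 UMIs in ECs, *C1qa* was past 2-fold, as were 1516 of 11351 genes (13.4%), 443 of them lower. *C1qb* was also past 2-fold in nuclei with at least 1000 UMIs (0.481, 0.318–0.719) and with TMM factors (0.494). With equal weight for each nucleus the *C1qa* ratio was 0.694, no longer past 2-fold, and that of *Serping1* went from 1.19 (0.806–1.77) to 1.88. Macrophage and monocyte markers in these nuclei summed to 189 CPM in the control and 114 CPM in the CKO, and microglial markers to 144 and 125 CPM. Choroid plexus or ependyma markers, nearly all *Ttr*, went from 1124 to 478 CPM and endothelial markers from 12922 to 10090 CPM. The part of these in the C1q ratios was not tested. UMIs of all 3 C1q genes met in 22 of 2475 control and 10 of 2944 CKO nuclei of the label.

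*Cfi* had 12 UMIs in control and 1 UMI in CKO ECs, a ratio of 0.0706 (0.00165–0.477). In the wider list 19 of 56 genes had at least 50 UMIs in ECs. *Cd55*, whose product speeds the decay of C3 convertases, was past 2-fold upward at 5.34 and 13.9 CPM (2.59, 1.71–4.03). *C1qa*, *Cd46* (0.442, 0.318–0.609) and *Clu* (0.383, 0.226–0.632) were past it downward. The regulator *Cd59a* had a ratio of 0.516 (0.447–0.595). The median log2 ratio of the 19 was −0.27, against 0.14 for all genes in ECs.

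**Figure D3:**
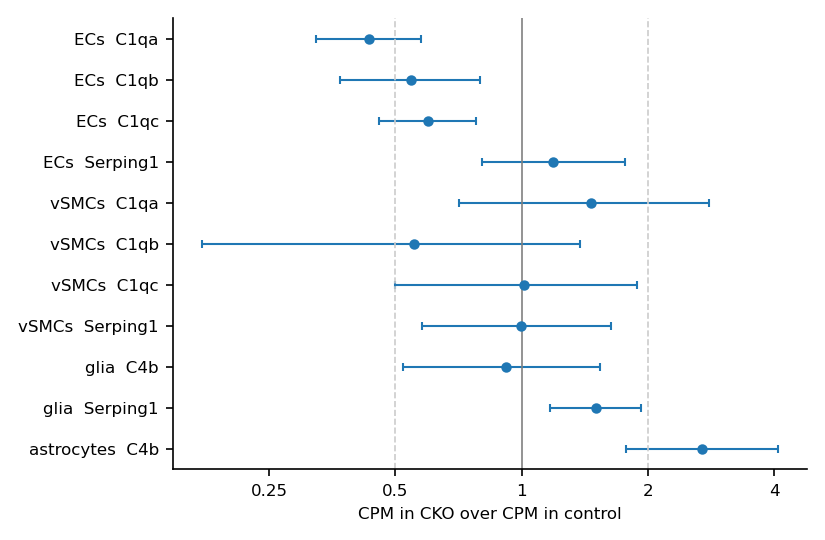
Ratio of CPM in the CKO to CPM in the control for complement genes with at least 50 UMIs in 4 labels of the brain libraries, with 95% counting intervals (1 library per genotype, no test). Dashed lines mark 2-fold. The astrocyte *C4b* ratio is 1.23 (0.459–2.86) in nuclei with at least 1000 UMIs. With equal weight for each nucleus, the vSMC ratio of *C1qa* is 0.973 and the *C1qa* ratio in ECs is 0.694.

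In vSMCs, with 449 control and 103 CKO nuclei, C1q ratios had intervals that include 1. *C1qa* had a ratio of 1.47 (0.710–2.80), *C1qb* of 0.554 (0.173–1.38), *C1qc* of 1.01 (0.499–1.88) and *Serping1* of 0.998 (0.580–1.63). With equal weight for each nucleus *C1qa* went to 0.973 and *C1qc* to 0.538. Of 4 members 0 were past 2-fold, against 551 of 6796 genes (8.11%). Fibroblast markers in these nuclei went from 2242 to 4242 CPM and choroid plexus or ependyma markers from 4451 to 2055 CPM. Macrophage and monocyte markers went from 453 to 337 CPM and the median depth from 1516 to 1103 UMIs. The part of these in the ratios was not tested.

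*C4b* in brain astrocytes had 49 UMIs in each library, which equal 36.0 CPM (26.6–47.5) in 942 control nuclei and 96.9 CPM (71.7–128) in 644 CKO nuclei. The ratio was 2.70 (1.78–4.09), and the intervals of the libraries do not overlap. Astrocyte nuclei were shallower in the CKO, with a median of 578.5 UMIs against 1150.5 in the control. In nuclei with at least 1000 UMIs (563 control and 109 CKO) there were 31 and 7 *C4b* UMIs and the ratio was 1.23 (0.459–2.86), an interval that includes the ratio over all nuclei. As the 1 member with at least 50 UMIs in astrocytes, *C4b* was past 2-fold, as were 534 of 3482 genes (15.3%), of which 130 were higher. Gliosis genes, *Gfap* the most abundant, summed to 306 CPM in the control and 805 CPM in the CKO. Markers of other cells moved both ways there. Oligodendrocyte markers (116 and 309 CPM) and choroid plexus or ependyma markers (195 and 431 CPM) were higher in the CKO. Endothelial markers (117 and 89.0 CPM) and pericyte and smooth muscle markers (231 and 170 CPM) were lower. The part of these in the *C4b* ratio was not tested.

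In the label "glia" *Serping1* stood at 126 CPM (219 UMIs) in the control and 190 CPM (95 UMIs) in the CKO, a ratio of 1.51 (1.17–1.92). *C4b* stood at 41.6 and 38.1 CPM (0.916, 0.522–1.54). *C1qa* had 12 and 6 UMIs (1.74, 0.534–5.00) and *C1qc* 14 and 3 UMIs (0.744, 0.137–2.67). *C1qb* had 16 and 0 UMIs, with the control value at 1.54 times the CKO floor of 3 UMIs, counting error of the control left out. Of the 2 members with at least 50 UMIs in "glia", *Serping1* and *C4b*, 0 were past 2-fold, against 951 of 6480 genes (14.7%). In the same nuclei oligodendrocyte markers went from 164 to 365 CPM, endothelial markers from 957 to 583 CPM, macrophage markers from 196 to 96.2 CPM and choroid plexus or ependyma markers from 1416 to 952 CPM. The median depth went from 879 to 582 UMIs, and the part of these was not tested. The microglia label held 38, 29 and 26 UMIs of *C1qa*, *C1qb* and *C1qc* in the control and 0 in the 11 CKO nuclei, where 3 UMIs equal 205 CPM. The control values were 2.32, 1.77 and 1.59 times that CKO floor of 3 UMIs. These multiples leave out the counting error of the control. Microglial markers in the label went from 9747 to 2255 CPM and macrophage markers from 11598 to 683 CPM, and 289 of 364 genes (79.4%) were past 2-fold, 234 of them lower. The 364 are genes with at least 50 UMIs in the label, and no C1q gene is among them. The label CP_6 held *C4b* at 7.57 and 16.1 CPM (2.13, 1.14–3.93) and *C3* at 5.45 and 3.66 CPM (0.671, 0.195–1.87). Over all genes with at least 50 UMIs in CP_6, 407 of 9684 (4.20%) were past 2-fold. *C4b*, with 47 UMIs in this label, and *C3*, with 23, are not among the 9684. Choroid plexus or ependyma markers there went from 5570 to 3850 CPM, oligodendrocyte markers from 326 to 492 CPM and the median depth from 1307 to 869 UMIs, and their part was not tested.

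*C1qa*, *C1qc* and *C1qb* lie next to each other on chromosome 4, with 0 protein-coding genes between neighbors in RefSeq. Because *C1qb* and *C1qc* had the closest profiles over labels, their promoter windows are shown, 250 bases before to 50 bases after the start of each gene (RefSeq, GRCm38.p6). Of the 7 members, *C1qb*, *C1qc* and *C3* have a window in the set used here. That set holds no window for *C1qa*, *C4b*, *Cfi* and *Serping1*. Both windows are on the minus strand and are written 5′ to 3′ along the gene, *C1qb* from chr4:136886151-136886450 and *C1qc* from chr4:136892865-136893164, with motif matches in capitals.
*C1qb*: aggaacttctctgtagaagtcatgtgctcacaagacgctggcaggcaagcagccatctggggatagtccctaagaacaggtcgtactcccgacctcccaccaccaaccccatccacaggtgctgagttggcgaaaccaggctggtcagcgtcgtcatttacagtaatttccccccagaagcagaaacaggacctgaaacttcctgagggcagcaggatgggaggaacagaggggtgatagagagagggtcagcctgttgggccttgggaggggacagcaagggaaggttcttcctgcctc
*C1qc*: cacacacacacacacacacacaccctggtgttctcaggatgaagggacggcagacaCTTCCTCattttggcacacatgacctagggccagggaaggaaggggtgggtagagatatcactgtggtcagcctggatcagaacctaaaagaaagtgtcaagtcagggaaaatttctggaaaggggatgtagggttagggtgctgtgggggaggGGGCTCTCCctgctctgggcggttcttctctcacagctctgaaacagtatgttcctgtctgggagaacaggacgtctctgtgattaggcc

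In all, 9 short motifs were searched on both strands of the windows, where N stands for any base. GAGGAAG, found in 13.6% of 32851 promoter windows, had 1 match in *C1qc*, on the opposite strand as CTTCCTC 194 bases before the start. GGGNNNTCC, found in 17.8%, had 1 match in *C1qc*, as GGGCTCTCC 40 bases before the start. Neither was present in *C1qb*. The other motifs were present in neither window: TTCNNNGAA (8.30% of windows), TTCNNGGAA (4.81%, each match also a match of the motif before it), GAAANNGAA (8.56%), CCAAT (37.4%), TATAAA (13.6%), CACGTG (7.15%) and TGANTCA (7.81%). A match describes letters in the window and is not evidence of binding.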

How the data were processed

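The authors deposited filtered counts of UMIs per gene and nucleus, with their cell type labels, from single-nucleus PIPseq libraries. Per the paper, reads were aligned with PIPseeker 3.3.0, background was removed with CellBender 0.3.2, and doublets were removed with SOLO (scVI-tools 1.2.2-post2) and by manual curation. No further doublet removal was done here. Counts were summed per label and library and divided by the total to give CPM. CKO retina libraries 1 to 11 held 31506779, 11967863, 12864074, 90449, 55803724, 13748577, 14624822, 19238751, 30111296, 16443337 and 20149672 UMIs, and the report gives the depth of the others.

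Retinal labels with at least 100 nuclei in the control and in CKO libraries (immune label, 20 nuclei) were tested with edgeR 4.0.16 (R 4.3.3) on genes with at least 50 summed UMIs, with TMM factors, kit version as covariate and an adjusted p below 0.05. Brain labels, with 1 library per group, were described by ratios with exact 95% counting intervals in Python 3.11.15 and scipy 1.17.1. Scripts were tested on simulated data.

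Alternatives were other covariates, factors and filters, DESeq2 1.42.0, other libraries or nuclei, leaving out each CKO library, and a permutation test. The alternative of Müller glia libraries with *Xist* was added after the files were seen. The analysis named the 7 members where they held at least 10 UMIs in 1 library, the 3 most abundant genes of the wider list and the 3 nearest profiles. The members and lists were chosen with earlier results of these data known. Other genes of the wider list, *C4a* among them, were named after their values were seen. *Cfd* and *Fcnb* are absent from the retina file and *Cfd* from the brain file. Promoter windows come from RefSeq on GRCm38.p6, and protein sequences were not used here.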

Additional observations from a re-analysis of the deposited data

Results flagged for a closer look

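Single libraries lay far from the others of their group in 5 of 18 groups. The measure was the gap to the nearest library as a share of the range (Dixon test). The groups share libraries of very unequal depth, so this count is not set against a chance rate. In the immune label CKO replicate 4 stood apart for *C1qa* (209 CPM), *C1qb* (558 CPM) and *C1qc* (442 CPM). This is 1 library of 104 nuclei, in which the immune label held 0 rod marker UMIs, against 6482 CPM in the control, and 7646 CPM of microglial markers, against 2560 CPM. Clusters had been removed by manual curation from replicates 4 and 5 before deposit. Fewer rod UMIs in the total and a different mix of immune cells could each raise C1q CPM, and these were not tested apart. *C1qa* in rods was far from the others in CKO replicate 11 (3.87 CPM), and *C3* in astrocytes in CKO replicate 5 (175 CPM).

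Over all nuclei, direction differed between tissues. *C1qb* and *C1qc* were each above the retina control (0.419 CPM for both) in 11 of 11 CKO libraries, replicate 4 included, while the brain ratio of CKO to control was 0.559 for *C1qb* and 0.701 for *C1qc*. The other 5 members were above the retina control in 10 of 11 libraries and had brain ratios of 0.283 to 0.887, so the pattern is not particular to these genes. Sums over all nuclei follow the cell make-up of a library. Immune nuclei were 0.252% of the retina control and a larger share of 11 of 11 CKO libraries (median 0.852%, highest 62.5% in replicate 4), while in the brain microglia went from 129 to 11 nuclei, vSMCs from 449 to 103 and "glia" from 1227 to 419. The part of make-up was not tested. The difference between tissues was not tested, and the brain holds 1 library per genotype.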

How the results depend on the processing

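Of 324 alternative values of 38 results, 270 were counted as the same, by direction and side of the threshold for a test, by a move within 1.5 times for a count, and within the counting interval as well for a brain ratio. The 270 include 9 fits with 1 CKO library left out and 1 other fit of *C3* in cone bipolar cells. For *C1qb* in rods they include 7 and 1 such fits. Neither gene had control UMIs in its label, so these fits could not turn and say nothing about stability. Also among the 270, *C1qb* in ECs went past 2-fold with TMM factors (0.494) and in nuclei of at least 1000 UMIs (0.481). *C4b* in Müller glia was higher in the CKO in all 21 alternatives. It passed with DESeq2 (log2 3.63), without the filter (3.56) and, among fits that left out 1 CKO library (3.37 to 3.78), without replicate 7. Genes past the threshold in Müller glia numbered 2, against 107 with DESeq2, 11 without the filter, 8 in the batch of the control, 1 without a covariate, 1 with batch as covariate, 0 in libraries with *Xist* and 1 to 7 when 1 CKO library was left out. In other retinal labels such counts went from 0 to 13, the highest in rod bipolar cells within the batch of the control, against 0. Glycinergic amacrine cells had 2, against 6 in that batch and 1 to 4 when 1 library was left out.

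Directions turned for *Serping1* in cone bipolar cells without a covariate (−0.00449) and in the immune label for *C1qa* without a covariate (−0.16), *C1qb* in the batch of the control (−0.0869) and *C1qc* as a ratio of means (0.00551). When 1 library was left out, *C1qb* lay between −0.14 and 0.59 and *C1qc* between −0.92 and −0.15. In the brain, equal weight per nucleus moved the ratios in ECs of *C1qa* (0.694) and *Serping1* (1.88) and in vSMCs of *C1qa* (0.973) and *C1qc* (0.538), and nuclei of at least 1000 UMIs that of *C4b* in astrocytes (1.23). Genes past 2-fold numbered 1516 in ECs, 551 in vSMCs, 534 in astrocytes and 951 in "glia", against 3268, 1685, 868 and 2022 with equal weight and 611, 82, 96 and 206 at 200 UMIs or more, where fewer genes are tested. In "glia" they numbered 587 in nuclei of at least 1000 UMIs. Apart from the smaller gene sets, the cause was not tested. No paired analysis was possible because the libraries carry no pairing and the control is 1 library. With 3 or fewer control UMIs in Müller glia, depth limits how well the *C4b* and *Serping1* folds are known.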
